A study of Mus musculus with 14 samples.

Results

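Rods were compared with double-sorted green cones for the accessibility of their chromatin, element by element, in 2 ATAC-seq libraries of each. The elements are 200 bp stretches around peak summits, and the members of the comparison are the 47360 of 53204 elements that passed a filter on low counts in these 4 libraries. Rods came from Nrl-eGFP reporter mice, in which GFP marks cells that use the Nrl promoter, and were sorted a single time by FACS. Green cones came from Opn1mw-GFP mice, in which GFP marks cells that use the promoter of the medium-wavelength opsin, and were passed through the sorter again. All mice were C57BL/6 and 8 weeks old, and none carried the Nrl deletion that other samples of the series have. The cell types therefore differ together with the reporter line and with the number of sorts, and these cannot be told apart here. The methods name male mice unless noted otherwise, so sex may differ between the groups as well. The series also holds other photoreceptor sorts, which were not used, and RNA-seq of rods, of which 3 libraries were used to describe the genes nearest to the elements.

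Rods are the photoreceptors of dim light and make up most cells of the mouse retina, whereas cones serve daylight and colour vision and are rare. The transcription factor Nrl, with its target Nr2e3, directs a precursor to the rod fate, and both types share Crx and Otx2. In ATAC-seq a transposase cuts and tags DNA that is not wrapped in nucleosomes, so the count of an element measures how open it was. Mouse rods pack their heterochromatin in the centre of the nucleus, an inversion of the layout of most nuclei, which accompanies the loss of lamin A/C and of the lamin B receptor.

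The sequences of 8 elements that carry the results are printed first, because the values given later refer to them. They were chosen after their values were seen: 3 more open in rods, 4 more open in green cones, and at Wnt7b an element that was bright in all 4 libraries. They are the plus strand of GRCm38 from the RefSeq reference. Capitals mark matches, on either strand, of CTAATCC (a consensus of the homeodomain factors Crx and Otx2), AGGTCA (the nuclear receptor core site), TGANTCA (the AP-1 consensus) and CCATCTG (an E-box of bHLH factors). These letters stood in 7.69%, 14.8%, 5.83% and 6.41% of all elements tested.
Nrl, intron, more open in rods, chr14:55521184-55521383: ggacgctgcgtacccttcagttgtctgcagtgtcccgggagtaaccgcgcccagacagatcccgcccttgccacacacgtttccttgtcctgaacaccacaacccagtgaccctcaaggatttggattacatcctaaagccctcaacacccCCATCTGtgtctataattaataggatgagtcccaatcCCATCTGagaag
Gnb1, intron, more open in rods, chr4:155522426-155522625: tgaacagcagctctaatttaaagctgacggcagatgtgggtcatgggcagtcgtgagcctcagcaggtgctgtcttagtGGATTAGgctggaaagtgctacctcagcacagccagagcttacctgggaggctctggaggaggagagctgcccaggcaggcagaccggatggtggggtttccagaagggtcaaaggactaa
Lpin1, intergenic, more open in rods, chr12:16425115-16425314: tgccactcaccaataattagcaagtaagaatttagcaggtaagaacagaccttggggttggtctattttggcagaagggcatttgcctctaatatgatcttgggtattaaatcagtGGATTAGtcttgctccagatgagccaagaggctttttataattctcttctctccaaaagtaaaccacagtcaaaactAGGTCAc
Slc24a2, intron, more open in green cones, chr4:87229625-87229824: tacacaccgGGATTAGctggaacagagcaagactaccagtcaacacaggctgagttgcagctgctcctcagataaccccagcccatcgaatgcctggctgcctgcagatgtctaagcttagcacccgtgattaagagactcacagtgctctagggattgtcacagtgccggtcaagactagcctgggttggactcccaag
Rxrg, intergenic, more open in green cones, chr1:167584018-167584217: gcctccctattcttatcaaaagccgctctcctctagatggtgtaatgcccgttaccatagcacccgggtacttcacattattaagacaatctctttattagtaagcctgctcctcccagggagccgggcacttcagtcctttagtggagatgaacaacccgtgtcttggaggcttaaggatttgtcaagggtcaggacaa
Myc, intergenic, more open in green cones, chr15:61889009-61889208: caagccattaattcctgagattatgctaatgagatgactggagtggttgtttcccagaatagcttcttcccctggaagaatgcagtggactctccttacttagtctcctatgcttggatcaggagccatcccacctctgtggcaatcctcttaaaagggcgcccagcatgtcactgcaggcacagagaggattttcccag
Nova1, intergenic, more open in green cones, chr12:46610075-46610274: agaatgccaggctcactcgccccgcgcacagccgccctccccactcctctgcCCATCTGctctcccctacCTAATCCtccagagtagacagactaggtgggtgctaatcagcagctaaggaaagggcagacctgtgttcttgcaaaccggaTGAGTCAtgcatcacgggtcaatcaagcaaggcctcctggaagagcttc
Wnt7b, intergenic, not called, chr15:85634583-85634782: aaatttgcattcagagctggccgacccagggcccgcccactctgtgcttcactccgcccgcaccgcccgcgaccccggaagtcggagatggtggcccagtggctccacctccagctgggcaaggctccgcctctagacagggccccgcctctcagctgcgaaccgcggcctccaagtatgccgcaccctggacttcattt
A match is a description of the letters and not a site in use. The elements near Rxrg, Myc and Wnt7b held none of these letters. The Gnb1 element, which was more open in rods, and the Slc24a2 element, which was more open in green cones, each held a single CTAATCC.

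The rod libraries held 5170146 and 5770075 counts in elements and the green cone libraries, which keep the numbers 3 and 4 of their labels, 1263753 and 1062403. Values are given as CPM, the count scaled to a common library total after TMM normalization, in the order rod 1, rod 2, green cone 3, green cone 4. A count of 3, used as the floor of each library, stood for 0.604, 0.549, 2.29 and 2.66 CPM, so lower levels could be seen in rods than in green cones. Of the elements with 1 to 9 counts, 86.5% to 87.7% per library had an even count, as when both reads of a pair are counted, and 2 counts may then be a single fragment. The rod libraries correlated at r = 0.975 over elements and the green cone libraries at 0.735, on log2(CPM + 1). Green cone 4 lay closer to rods, at 0.634 and 0.630, than green cone 3, at 0.490 and 0.489. Because the green cone libraries differed this much, the counts of the main gene lists are given also without each of them. The labels number the sorts but do not say whether they came from separate animals, so p-values measure the spread between these samples. With 2 libraries against 2, an exact two-sided permutation test of a single value cannot go below p = 0.333, and tests were made only in the fits over all elements or all windows.

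Among the elements tested, green cones had the larger set called for them. According to the methods, the element list merged the peaks of rods, green cones and photoreceptors with the Nrl deletion. The paper describes the last of these as cone-like. The part of this choice of elements in the numbers was not tested. Of the 47360 elements, 3043 were more open in rods, which is 6.43% of those tested, and 8852 were more open in green cones, which is 18.7%. The calls come from edgeR's glmTreat, which asks whether a change exceeds 1 on the log2 scale, with p adjusted by Benjamini-Hochberg and kept under 0.1. The differences in favour of green cones were also larger. The median log2 fold change of rods over green cones, written log2 change from here on, was 2.46 among the rod elements and −3.79 among the green cone elements. With a group without counts set to its floor, these medians became 2.26 and −3.70. A change of more than 8-fold was seen in 34.1% of the rod elements and 70.7% of the green cone elements. There were 324 rod elements without a count in green cones, which is 10.6% of them, and 883 green cone elements without a count in rods, which is 9.98%.

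**Figure D1:**
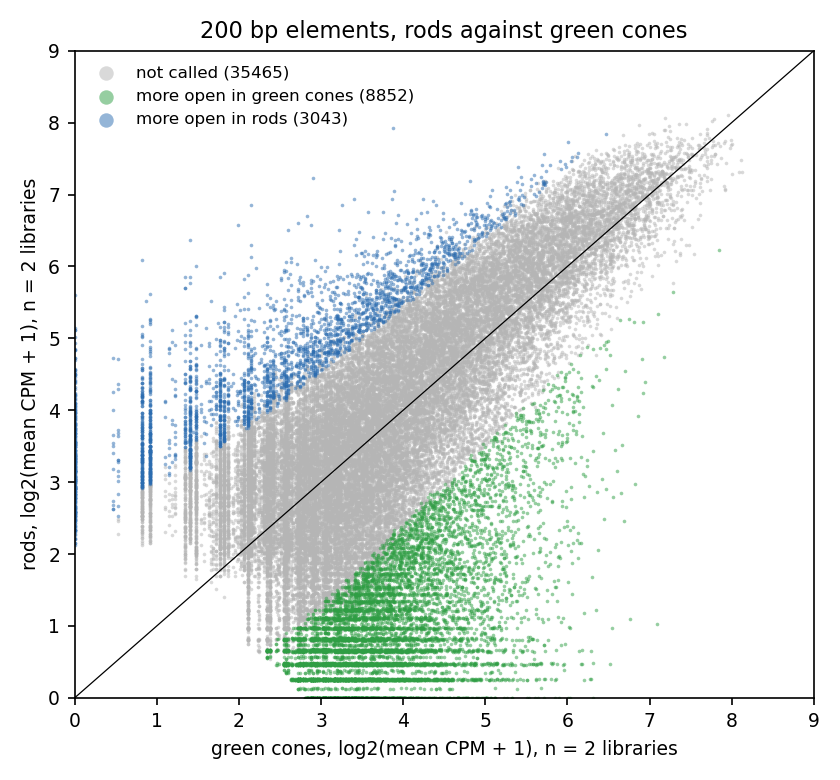
Mean accessibility of each of the 47360 elements in green cones (x axis) and rods (y axis), both as log2(mean CPM + 1) over 2 libraries. Elements more open in rods, elements more open in green cones and elements not called have their own colours, the line marks equal values, and the 8852 green cone elements spread farther from it than the 3043 rod elements.

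A typical rod element was open in rods and at a low level in green cones, with median CPM of 22.5, 23.2, 3.06 and 3.55. A typical green cone element was nearly closed in rods, with 0.805, 0.732, 13.8 and 10.6. Rod elements took 9.34% and 9.48% of the counts of the rod libraries and 1.93% and 2.66% of those of the green cone libraries, and green cone elements took 1.37%, 1.47%, 16.8% and 13.4%. The 35465 elements that were not called had median CPM of 12.1, 12.4, 10.7 and 12.4 and a median log2 change of 0.20. Not being called does not show that they were equally open. In 34440 elements, 72.7% of those tested, the values of the groups did not overlap, and rods were the higher in 16979 of them and green cones in 17461. All elements that the filter kept had at least 15 counts over the 4 libraries and at least 3.06 CPM in 2 or more of them. A given CPM takes fewer counts in a green cone library than in a rod library, so elements could pass on low counts in green cones. The 5844 elements removed had a median of 16 and a maximum of 66 counts. Without green cone 3 the calls were 3230 for rods and 5601 for green cones, and without green cone 4 they were 8013 and 9023, so the numbers depend strongly on which green cone library is kept.

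The genes of rod phototransduction were more open in rods. Of 94 elements nearest to the 21 genes of this list, 39 were more open in rods (41.5%) and 1 in green cones, against 6.43% and 18.7% of all elements, and the median log2 change was 1.49 against −0.0078 over all elements. The rod elements lay at 17 of the 21 genes. Summed over the list, accessibility was 3978, 4087, 1304 and 1670 CPM, so both rod libraries were above both green cone libraries. There were 33 rod elements among 95 without green cone 3, and 53 without green cone 4.

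Gnat1 encodes the alpha subunit of rod transducin, the G protein that activates phosphodiesterase in light. Its promoter (chr9:107679619-107679818) had 121, 108, 1.53 and 5.32 CPM, a log2 change of 5.10 (SE 0.43, edgeR adjusted p = 0.000901). All 6 elements nearest to Gnb1, the beta subunit, were more open in rods. The Gnb1 promoter was close to the threshold, at 23.5, 30.4, 6.12 and 8.87 CPM (log2 change 1.86, edgeR adjusted p = 0.0536). Its call was lost in 5 of 12 alternative fits, DESeq2 among them. The Gnb1 intron element printed above had 88.5, 100.4, 1.53 and 4.44 CPM (log2 change 5.01, SE 0.43). Pde6b, a catalytic subunit of the rod phosphodiesterase, had a promoter element of 65.4, 66.8, 1.53 and 8.87 CPM (log2 change 3.72) and an intron element without a count in green cones that was at least 4.14-fold higher in rods. Gucy2e, a guanylate cyclase that both photoreceptor types use, had a promoter element of 65.6, 55.4, 29.1 and 71.9 CPM that was not called, and the green cone values lay on both sides of the rod values. None of the 7 elements at Sag, Grk1 and Gngt1, the genes of rod arrestin, a receptor kinase and the rod transducin gamma subunit, was called by edgeR or DESeq2, and 2 of them had an unadjusted p under 0.05 in favour of rods.

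Rod transcription factors followed the same direction. Of 45 elements at 7 genes, 17 were more open in rods (37.8%, against 6.43% of all elements) and 7 in green cones (15.6%, against 18.7%), with a median log2 change of 1.04. The counts were 14 and 5 among 43 without green cone 3, and without green cone 4 they were 21 and 2 among 40. All 4 elements of Nrl, which sets the rod fate, were more open in rods. The Nrl promoter (chr14:55524915-55525114) had 238, 245, 6.12 and 21.3 CPM, a log2 change of 4.17 (SE 0.41, edgeR adjusted p = 0.00117). The Nrl intron element printed above had 96.8, 104, 16.8 and 16.9 CPM (log2 change 2.57). Rods carried the Nrl reporter and green cones did not, so reads from reporter copies of Nrl sequence and from the gene itself cannot be told apart at these elements.

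Esrrb, a nuclear receptor active in rods, had 9 of its 16 elements more open in rods, and its elements summed to 573, 625, 167 and 238 CPM. An intron element of Esrrb had 20.7 and 24.3 CPM in rods and no count in green cones, which is at least 9.09-fold. The single tested element of Nr2e3, the repressor of cone genes in rods, was also a rod element. The 7 green cone elements of this list lay at Rorb, with 5, and Mef2c, with 2. Promoter elements of Mef2c were called in both directions. One had 53.5, 56.3, 13.8 and 17.7 CPM and was more open in rods (log2 change 1.81). Another had 0.805, 1.10, 6.12 and 16.0 CPM and was more open in green cones (log2 change −3.46). A distal intron element of Mef2c had 0.402, 0, 6.12 and 19.5 CPM (log2 change −5.77). The call at the promoter more open in rods was lost in 3 alternative fits, among them without rod 1 and without rod 2. The call at the other promoter was also lost in 3.

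Factors that both photoreceptor types use were mixed, with 7 rod and 12 green cone elements among 85 (8.24% and 14.1%, against 6.43% and 18.7% of all elements) and a median log2 change of 0.11. Their counts were 6 and 8 among 83 without green cone 3, and without green cone 4 they were 15 and 14 among 86. All 12 green cone elements lay at Rora, a retinoid-related receptor. An alternative Rora promoter had 0.402, 0, 13.8 and 26.6 CPM (log2 change −6.44, edgeR adjusted p = 0.00274), whereas another had 86.5, 90.2, 97.9 and 81.6 CPM and was not called. Crx, the homeodomain activator of both types, had 3 of 4 elements more open in rods. Its promoter had 86.9, 85.4, 3.06 and 34.6 CPM (log2 change 2.24, SE 0.63, edgeR adjusted p = 0.0754), and the green cone libraries were far apart there. The call at this promoter was lost without green cone 3, with a log2 change of 1.29 (edgeR adjusted p = 0.156), and without green cone 4 the log2 change was 4.83. A second Crx call, at an intron element of 26.4, 26.7, 0 and 8.87 CPM, was also lost without green cone 3 (log2 change 1.55 in place of 2.66, edgeR adjusted p = 0.176). DESeq2 made none of the 3 Crx calls. A distal element of Otx2, 53.6 kb downstream of its start, had 62.0, 66.8, 6.88 and 9.76 CPM (log2 change 2.96, SE 0.34).

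The outer segment is the stack of membrane discs in which light is absorbed. Its list had 19 rod elements and 1 green cone element among 79 (24.1% and 1.27%, against 6.43% and 18.7% of all elements), with a median log2 change of 1.19. Prph2, which shapes the disc rim in both rods and cones, had 8 of its 11 elements more open in rods, and they summed to 693, 726, 110 and 263 CPM over all 11. The Prph2 promoter was close to the threshold, at 99.2, 103, 10.7 and 44.4 CPM (log2 change 1.90, edgeR adjusted p = 0.0667), and its call was lost in 6 of the alternatives. These included leaving out rod 1 (edgeR adjusted p = 0.117), rod 2 (0.133) and green cone 3 (0.286, log2 change 1.17). An intergenic element 17.7 kb downstream had 79.3, 75.5, 1.53 and 5.32 CPM (log2 change 4.53). At Pcare, a ciliary protein of photoreceptors, a distal element went the other way with 9.46, 8.41, 86.4 and 63.0 CPM (log2 change −3.06, SE 0.31). Synapse genes had 6 rod and 10 green cone elements among 124, so that 4.84% were called for rods and 8.06% for green cones, beside 6.43% and 18.7% of all elements.

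The genes of cone phototransduction were more open in green cones, though at fewer of their elements. Of 57 elements at 13 genes, 19 were more open in green cones (33.3%, against 18.7% of all elements) and 3 in rods, with a median log2 change of −1.02. Their sum was 839, 812, 850 and 1232 CPM, so green cone 3 was close to rods and green cone 4 was above them. Without green cone 4, 12 elements were called for green cones and 8 for rods and the median became 0.18, and without green cone 3 the counts were 21 and 2 and the median was −1.35. The direction of this list as a whole therefore rests on green cone 4. The called elements lay at 7 genes, while none of the 11 elements of Gnb3, Arr3, Pde6c and Gngt2 was called by edgeR or DESeq2 or had an unadjusted p under 0.05 in edgeR's test.

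Slc24a2, the cone sodium, calcium and potassium exchanger, had 6 of its 7 elements more open in green cones. Its promoter had no count in rods and 23.7 and 41.7 CPM in green cones, at least 56.7-fold higher. The Slc24a2 intron element printed above had 0.402, 0.366, 45.9 and 47.9 CPM, and the green cone libraries were alike. Cnga3 and Cngb3 encode the subunits of the cone cyclic nucleotide-gated channel. Cnga3 had 6 of 7 elements more open in green cones, among them an intron element of 0.402, 0, 26.0 and 39.0 CPM (log2 change −7.13, SE 0.72). Promoter elements of Cnga3, with log2 changes of −2.58 and −2.45, lost their calls in 3 and 4 of 12 alternative fits. DESeq2 and the study's read totals were among these fits. Both elements of Cngb3 were called. The promoter of the green cone reporter gene Opn1mw (chrX:74127295-74127494) had 0.402, 0, 8.41 and 22.2 CPM (log2 change −6.03, SE 1.00). Green cones carried this reporter and rods did not, so any reads from reporter copies cannot be told apart from those of the gene. The promoter of Opn1sw, the short-wavelength opsin, had 1.81, 1.10, 9.18 and 50.6 CPM (log2 change −4.31, SE 0.79), with a large gap between the green cone libraries.

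Cone transcription factors had 30 green cone and 4 rod elements among 81 at 10 genes (37.0% and 4.94%, against 18.7% and 6.43% of all elements), with a median log2 change of −1.11. Without green cone 3 there were 20 and 2 among 72, and without green cone 4 there were 29 and 7 among 77. Rxrg, the retinoid X receptor of cones, had 6 of 7 elements more open in green cones. The element 14.2 kb upstream of Rxrg, printed above, had 0.402, 0.366, 58.9 and 55.9 CPM (log2 change −7.09, SE 0.46, edgeR adjusted p = 0.000699). The Rxrg promoter was open in rods as well but lower, at 4.02, 7.68, 61.2 and 44.4 CPM (log2 change −3.16). All 5 elements of Sall1, a zinc-finger repressor, were green cone elements, and the one 256 kb upstream of it had no count in rods and was at least 24.9-fold higher in green cones. An intron element of Sall3 had 0.402, 1.10, 34.4 and 36.4 CPM (log2 change −5.46), while the Sall3 promoter, at 57.5, 43.9, 98.6 and 48.8 CPM, overlapped between the groups. Thrb, the thyroid hormone receptor that directs the green opsin, was divided, with 5 green cone and 4 rod elements among 29. All 4 rod elements of the list were those of Thrb.

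**Figure D2:**
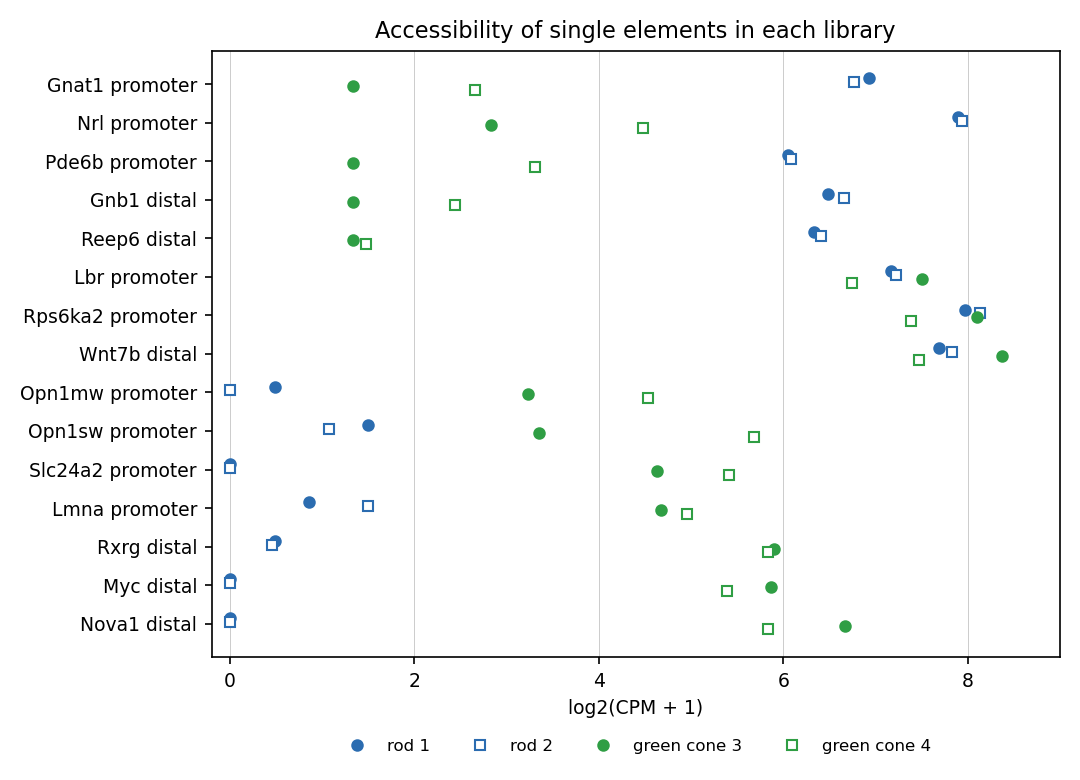
Accessibility of 15 elements in each library, as log2(CPM + 1), with a point for each of rod 1, rod 2, green cone 3 and green cone 4, where an element without a count sits at 0. Promoters of Gnat1, Nrl and Pde6b were higher in both rod libraries, those of Opn1mw, Opn1sw, Slc24a2 and Lmna in both green cone libraries, and the Lbr and Rps6ka2 promoters overlapped.

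Neurodevelopmental transcription factors, which pattern and specify neurons and are not named for cones, were the list with the most green cone elements. Of 159 elements at 33 genes, 82 were more open in green cones (51.6%, against 18.7% of all elements) and 3 in rods, and the median log2 change was −2.30. The sums were 1002, 995, 2642 and 2087 CPM. Only 22 of the 159 elements were promoter elements. Of all distal elements 23.8% were called for green cones, and of all elements 100 to 250 kb from a start site 48.0%. The list was not set against elements at matched distances. Without green cone 3, 48 of 133 elements were called for green cones and 3 for rods, and without green cone 4, 86 and 4 of 159. All 13 elements of Tshz2, a zinc-finger factor, all 8 of Sox6 and all 7 of Sox11 were green cone elements. A Tshz2 promoter element had 0.805, 1.10, 26.0 and 17.7 CPM (log2 change −4.47). Irx1, an Iroquois homeobox gene, had all 3 elements called, and one 157 kb upstream had no count in rods and 61.2 and 41.7 CPM in green cones, at least 89.3-fold higher. An intergenic element at Zic4 went the other way, with 24.5 and 25.6 CPM in rods and no count in green cones.

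At the genes of the nuclear lamina and envelope, 12 elements were more open in rods and 9 in green cones among 81 (14.8% and 11.1%, against 6.43% and 18.7% of all elements), with a median log2 change of 0.51. Lmna encodes lamin A/C, and its promoter element, in a 5′ UTR (chr3:88503208-88503407), had 0.805, 1.83, 24.5 and 30.2 CPM (log2 change −4.31, SE 0.52, edgeR adjusted p = 0.00213). An element 6.73 kb upstream of Lmna had 1.21, 1.83, 15.3 and 32.8 CPM (log2 change −3.93). By contrast, the promoter of Lbr, the lamin B receptor, was open in all 4 libraries at 143, 149, 180 and 106 CPM (log2 change 0.02) and the groups overlapped. An intron element of Lbr had 0.604, 0.732, 7.65 and 3.55 CPM (log2 change −3.01, edgeR adjusted p = 0.0485), and its call was lost in 4 of the alternatives, among them without rod 1 (edgeR adjusted p = 0.579) and without rod 2 (0.540). An element 7.39 kb upstream of Syne3, a nesprin of the outer nuclear membrane, had 30.6 and 38.0 CPM in rods and no count in green cones, at least 13.9-fold higher.

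Genes of heterochromatin and Polycomb had 17 rod elements (22.7%, against 6.43% of all elements) and no green cone element (against 18.7%) among 75, with a median log2 change of 0.87. A promoter element of Dnmt3a, a DNA methyltransferase, had 50.7, 49.0, 12.2 and 15.1 CPM (log2 change 1.87, SE 0.32), and its call was lost without rod 1 (edgeR adjusted p = 0.195) and without rod 2 (0.170). Without adjustment, 20 elements had p under 0.05 in favour of rods and 1 in favour of green cones, and DESeq2 called 1 element for rods and 0 for green cones. The promoter of H1f3, a linker histone gene, had 22.9, 16.8, 4.59 and 1.77 CPM (log2 change 2.59), and its call was lost without rod 1 (edgeR adjusted p = 0.169). Cohesin and CTCF genes had 6 rod elements (14.3%) and no green cone element among 42, and 5 of the 6 lay at Wapl, which releases cohesin from DNA, and the other at Stag2. At an unadjusted p under 0.05 these counts stayed 6 and 0, and DESeq2 called 2 and 0.

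Glycolysis genes had 8 rod and 5 green cone elements among 81 (9.88% and 6.17%, against 6.43% and 18.7% of all elements), with a median log2 change of 0.85. Ldha, which makes lactate and is used heavily by photoreceptors, had 4 of the rod elements. The one 7.40 kb upstream of Ldha had 36.0, 34.8, 3.06 and 3.55 CPM (log2 change 3.41, SE 0.43). Ldhb, its counterpart, had 2 green cone elements, and one 23.4 kb upstream had 0, 1.10, 15.3 and 8.87 CPM. No promoter element of Ldha or Ldhb was called. One of Ldha had 43.3, 39.7, 12.2 and 29.3 CPM, and that of Ldhb had 27.2, 27.4, 67.3 and 35.5 CPM. Clock genes had 5 rod and 8 green cone elements among 80 and immediate early genes 6 and 9 among 90, so that 10.0% of either list was called for green cones, beside 18.7% of all elements. Protocadherin genes had 2 rod and 7 green cone elements among 45 (4.44% and 15.6%), shares close to those of all elements, and Hox genes 0 and 1 among 9 (0 and 2 unadjusted, 0 and 0 by DESeq2).

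The rod counts of these lists differed with the green cone library that was kept, as did the share of all elements called for rods, which was 16.6% with green cone 3 alone and 6.97% with green cone 4 alone. With green cone 3 as the only green cone library, the rod elements numbered 36 at outer segment genes, 28 at synapse genes, 24 at lamina and envelope genes, 31 at heterochromatin and Polycomb genes, 14 at cohesin and CTCF genes and 38 at glycolysis genes. With green cone 4 as the only one they numbered 14, 7, 9, 11, 7 and 8. For clock and immediate early genes the rod counts were 16 and 18 with green cone 3 alone and 3 and 5 with green cone 4 alone.

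**Figure D3:**
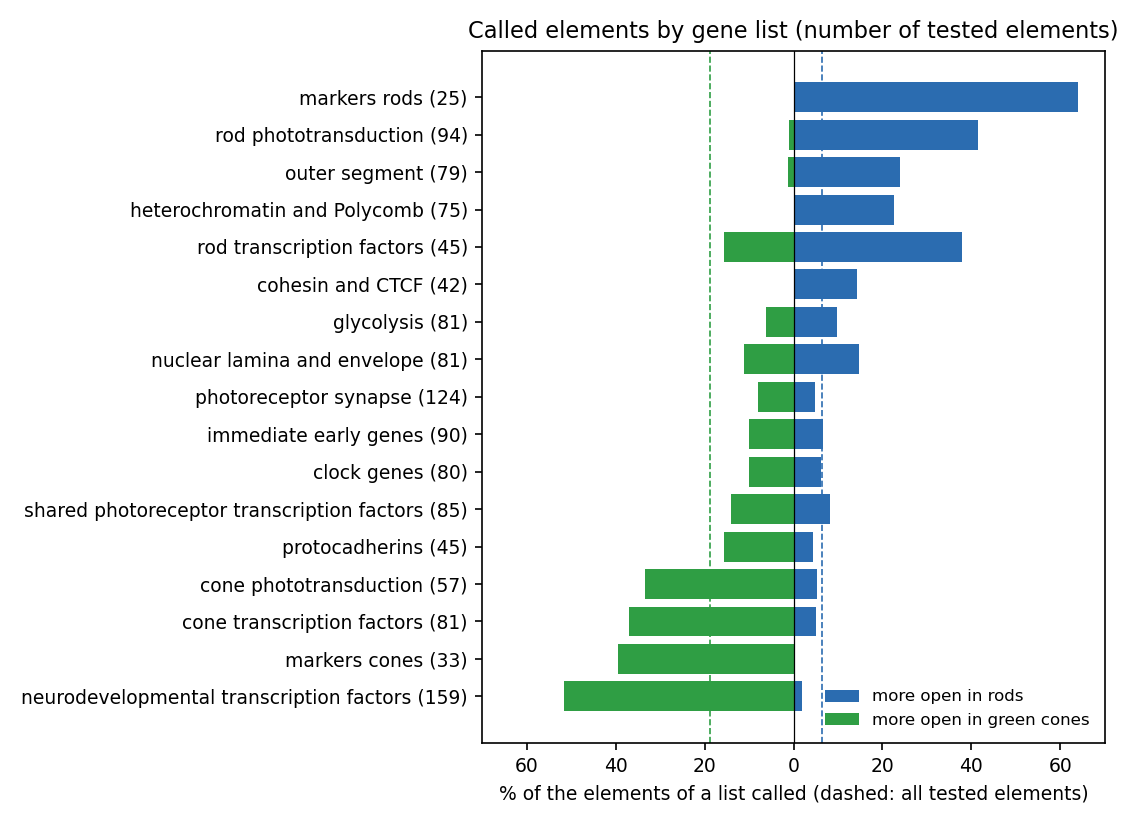
Percent of the elements of each gene list called for rods and called for green cones, with the share over all tested elements as dashed lines (6.43% and 18.7%). Rod phototransduction reached 41.5% for rods and neurodevelopmental transcription factors 51.6% for green cones.

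Markers of the sorted cells and of other retinal cells were read in the same libraries. Rod markers had 16 of 25 elements more open in rods (64.0%, against 6.43% of all elements) and none more open in green cones. All elements of these genes summed to 1506, 1571, 256 and 336 CPM, and the promoter elements alone to 907, 929, 109 and 151 CPM. Cone markers had 13 of 33 elements more open in green cones (39.4%, against 18.7% of all elements) and none in rods. Their sums were 236, 226, 471 and 668 CPM over all elements and 69.2, 64.9, 179 and 325 CPM over promoter elements. The markers of each label were thus higher in the libraries that carry it. The lists include Nrl and Opn1mw, on whose reporters the cells were sorted, so the elements of these genes are no independent check of the labels. At an unadjusted p under 0.05 edgeR gave 17 elements for rods and 0 for green cones at rod markers and 0 and 13 at cone markers, and DESeq2 called 13 and 0, and 0 and 9. Of the genes that mark other cells, 26 of 46 had a tested element, with 73 elements in all, of which 7 were called for rods (9.59%) and 20 for green cones (27.4%), beside 6.43% and 18.7% of all elements, and no erythrocyte gene had an element.

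Horizontal cell markers summed to 30.6, 26.9, 244 and 160 CPM, with 7 of 9 elements more open in green cones and none in rods (8 and 0 at an unadjusted p under 0.05 in edgeR's test, 5 and 0 by DESeq2). The promoter of Onecut1, which is used by horizontal cells and by developing cones, had 2.62, 1.65, 42.8 and 27.5 CPM (log2 change −4.04). Ganglion cell markers summed to 40.4, 39.1, 126 and 63.0 CPM, with 4 of 6 elements called for green cones and none for rods (5 and 0 unadjusted, 3 and 0 by DESeq2). Only 3 of these elements were tested without green cone 3, and 1 was called. The promoter of Pou4f1, a defining gene of ganglion cells, had 0.402, 0, 16.1 and 9.76 CPM (log2 change −5.81). Both lists were higher in green cone 3 than in green cone 4, and their median log2 differences of green cone 4 from green cone 3 were −0.62 and −0.92.

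Bipolar markers summed to 333, 368, 264 and 192 CPM, but their calls ran both ways. The 5 rod elements among 18 lay at a single gene, Prkca, and the 2 green cone elements at Grm6 (6.04, 5.85, 42.1 and 16.0 CPM) and Trpm1 (0, 1.10, 16.8 and 14.2 CPM), the receptor and channel of ON bipolar cells. The Grm6 call was lost without green cone 3, rod 1 or rod 2. Amacrine markers summed to 266, 258, 97.9 and 188 CPM. Of their 13 elements, 1 at Slc6a9 was called for rods, and 1 at Gad1 (2.01, 2.56, 12.2 and 12.4 CPM) and 1 at Tfap2a (0.402, 1.10, 6.12 and 17.7 CPM) for green cones. The Gad1 call was lost without rod 1 or rod 2, that of Slc6a9 without rod 1, and that of Tfap2a without rod 1 or green cone 4. Müller glia markers were at 201, 217, 288 and 238 CPM, endothelial markers at 17.5, 15.5, 53.5 and 43.5 CPM, and microglia markers at 8.85, 8.78, 13.8 and 8.87 CPM from 2 elements. Among the green cone elements, 32.5% were higher in green cone 4 than in green cone 3, whereas 75.8% of the elements of cone markers were. Neurodevelopmental elements were higher in green cone 4 in 34.6% of cases. The part that other cells have in the green cone elements was not tested, and fewer cells of a type cannot be told apart from a lower accessibility per cell.

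Among the elements with the lowest adjusted p in favour of rods were those at Reep6, Gnat1, Tcp11, Gnb1 and Lpin1. Reep6, which shapes endoplasmic reticulum and is used by rods, had an intron element at 79.5, 84.3, 1.53 and 1.77 CPM (log2 change 5.61, SE 0.43, edgeR adjusted p = 0.000748). The Tcp11 promoter had 115, 115, 9.18 and 7.98 CPM (log2 change 3.73). The intergenic element printed above near Lpin1, 165 kb from its start, had 61.0, 52.7, 1.53 and 1.77 CPM (log2 change 5.08).

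In favour of green cones the elements with the lowest adjusted p were at 4930434J06Rik, Capza3, Diras2, Gramd3, Nova1 and Rxrg. The promoter of 4930434J06Rik had 0.402, 0, 74.9 and 79.8 CPM (log2 change −8.39, SE 0.56, edgeR adjusted p = 0.000699). The Gramd3 promoter had 0.805, 1.28, 168 and 102 CPM (log2 change −6.96). The promoter of Nova1, a neuronal splicing regulator, had 0.604, 0.183, 82.6 and 74.5 CPM (log2 change −7.54). The intergenic element near Nova1 printed above had no count in rods and 101 and 55.9 CPM in green cones, which is at least 136-fold. That near Myc, 96.2 kb upstream of the gene, had no count in rods and 57.3 and 40.8 CPM in green cones, at least 85.2-fold higher.

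Some genes collected many called elements. Zfp608, a zinc-finger gene, had 33 of its 34 elements more open in green cones, and the 34 elements summed to 9.26, 10.8, 701 and 463 CPM. All 21 elements of Cdh13, a cadherin, and all 20 of Kcnma1, the large-conductance potassium channel, were green cone elements, and Ptprg had 21 of 23. Ntm, a cell adhesion gene, had 21 green cone and 3 rod elements among 59. On the rod side the highest numbers were 10 of 16 elements at 4930505M18Rik, 10 of 18 at Lmo1, 9 of 16 at Esrrb and 8 of 11 at Prph2. Casz1, a zinc-finger factor, had 7 of 22, Gulp1 7 of 8 and Sec14l1 7 of 12.

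The brightest elements that were not called had high values in all 4 libraries. The promoter of Smpd3 had 253, 268, 204 and 226 CPM (log2 change 0.27), that of Rps6ka2 had 250, 281, 273 and 166 CPM, and an intron element of Kat6b had 259, 289, 278 and 217 CPM. The element near Wnt7b printed above had 205, 228, 332 and 177 CPM (log2 change −0.23). At Rps6ka2, Kat6b and Wnt7b the values of the groups overlapped, and at Smpd3 both rod values were above the green cone values.

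Where an element lay was related to how often it was called. Promoter elements, within 1 kb upstream or 0.1 kb downstream of a start site, were called for rods in 4.38% and for green cones in 6.57% of 14071 cases, and distal elements in 7.29% and 23.8% of 33289. Without green cone 3 the distal calls numbered 2738 and 4851 and without green cone 4 they numbered 5166 and 7886. With the read totals of the study as library sizes the promoters turned to 1077 calls for rods and 527 for green cones, and without green cone 4 to 2847 and 1137, so the direction at promoters depends on scaling and on 1 library. Promoter elements took 59.7% and 58.4% of the counts in rods and 51.8% and 53.9% in green cones. The share called for green cones rose with distance, from 6.77% within 1 kb of a start site to 22.2% at 10 to 50 kb, 48.0% at 100 to 250 kb and 65.4% beyond 250 kb. The share called for rods was highest at 1 to 10 kb, at 9.92%, and was 4.04% beyond 250 kb. The median distance was 9.59 kb for rod elements, 30.7 kb for green cone elements and 3.11 kb for the rest. Elements over 100 kb from a start site held 2.61%, 2.71%, 6.63% and 4.80% of the counts of the 4 libraries.

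The base composition of the surroundings went along with this. In the decile of elements with the least GC in the 100 kb around them, 27.0% were called for green cones and 5.70% for rods. In the decile with the most GC, 7.82% and 9.46% were. The autosomes ranged from 27.0% called for green cones on chromosome 1 to 13.2% on chromosome 17, and from 11.8% called for rods on chromosome 19 to 3.33% on chromosome 18.

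**Figure D4:**
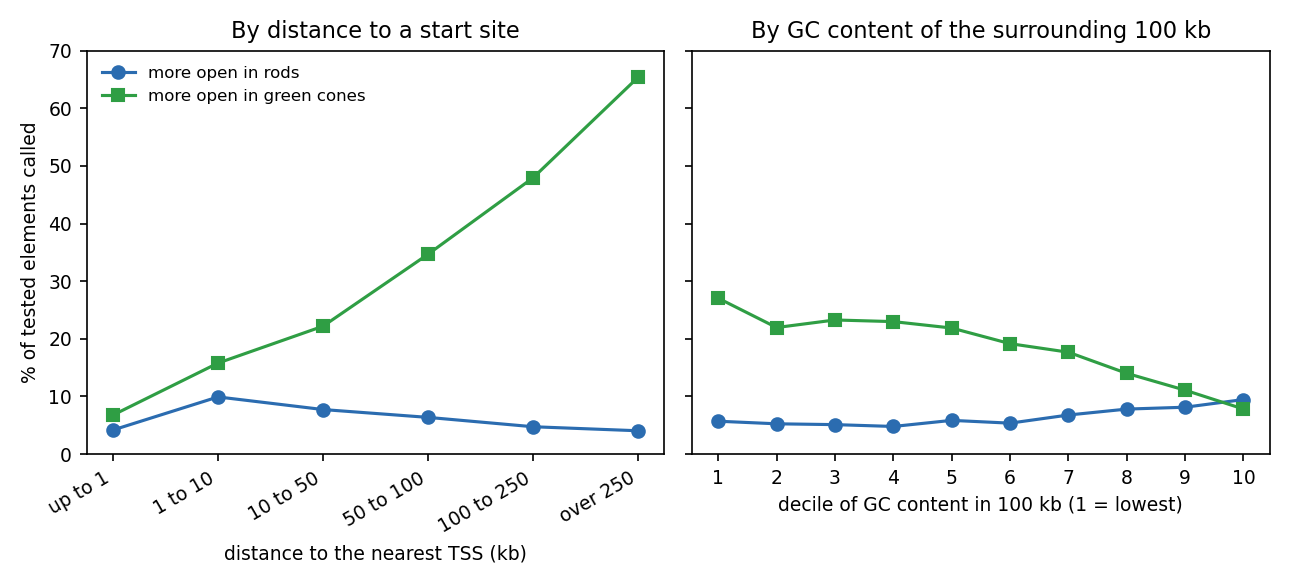
Percent of tested elements called for rods and for green cones, by distance to the nearest start site in kb (left) and by decile of GC in the surrounding 100 kb (right). The green cone share climbs from 6.77% within 1 kb to 65.4% beyond 250 kb and falls from 27.0% to 7.82% with GC.

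The X chromosome had fewer green cone elements than any autosome, 52 of 796 (6.53%), beside 55 rod elements (6.91%). Away from promoters, 9.07% of 397 elements on X were called for green cones against 24.0% of 32885 on autosomes, and 8.82% against 7.27% for rods. The X share of all counts was 1.49% and 1.47% in rods and 1.04% and 1.27% in green cones. The median log2 change of distal elements was 0.44 on X and −0.27 on autosomes. Without green cone 3 these medians were 0.39 and −0.081, and without green cone 4 they were 0.62 and −0.17. The methods name male mice unless a supplement of the study notes otherwise. Sex may therefore differ between the groups. The Y chromosome, with 13 elements, held 0.00888%, 0.00778%, 0.00522% and 0.0114% of the counts, so all 4 libraries had counts on Y. The part of sex in these values was not tested.

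The shares of consensus letters given here are those of distal elements. CTAATCC was found in 12.7% of rod, 11.7% of green cone and 9.08% of uncalled distal elements. AGGTCA was in 27.0%, 20.8% and 16.0%, and its longer form TAGGTCA, as in the consensus of Ror receptors, in 6.18%, 3.57% and 3.17%. TAAT followed by CTTA 3 bases on was in 4.95%, 2.86% and 2.58%. Other motifs were more frequent in green cone than in rod elements. CAGCTG, an E-box, was in 13.1% of rod, 18.6% of green cone and 15.7% of uncalled distal elements, and TAATTA in 6.47%, 7.67% and 4.72%. TGANTCA was in 5.65% of rod and 12.2% of green cone distal elements and in 7.23% of all distal elements tested, and 40.2% of the elements that held it were called for green cones. CCATCTG was in 5.32% of rod distal elements, in 875 of the 7927 green cone ones and in 8.19% of all. The CTCF consensus was in 2.89%, 5.06% and 9.74%, so it was most frequent among elements that were not called, and 2.59% of the distal elements with it were called for rods and 14.8% for green cones. TGCTGAC, part of the consensus of Maf factors such as Nrl, was in 5.73%, 5.06% and 4.34%.

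The authors' peak lists were called on pooled replicates and, by the methods, filtered for reproducibility between replicates. They hold no values per replicate and were set beside the calls. The rod list held 24367 peaks with a median width of 699 bp and a median fold enrichment of 12.6, and the double-sorted green cone list 30772 peaks with 578 bp and 9.12. Of the rod elements, 60.3% held a summit of the rod list alone and 37.4% of both lists. Of the green cone elements, 82.9% held a summit of the green cone list alone and 5.13% of both. A summit of neither list was held by 11.8% of green cone elements, 2.27% of rod elements and 14.8% of those not called. The lists were made from the same reads as the counts and are no independent evidence.

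Green cone elements lay in runs along the chromosomes. A run is a series of neighbouring tested elements with the same call. Of the green cone elements, 73.1% had a green cone neighbour, and 41.4% lay in 403 runs of 5 or more that had a median length of 508 kb. Of the rod elements, 32.7% had a rod neighbour, and 2.79% lay in 15 such runs with a median of 35.1 kb. Green cone elements were also the larger class, 18.7% of elements against 6.43%, and the part of their number in the length of the runs was not tested.

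The longest run held 49 green cone elements over 1584 kb of chromosome 14 (chr14:22651202-24235419), from 4930405A10Rik to Dlg5, and included the 20 elements of Kcnma1. It summed to 35.2, 35.9, 1060 and 663 CPM. A run of 35 elements on chromosome 11, from Tmem98 to Gm11426, had 33.0, 34.9, 941 and 635 CPM. The longest rod runs held 8 elements. The one at Prph2 (chr17:46910305-46931306) spanned 21.0 kb with 611, 644, 78.0 and 217 CPM, and that from Gnb1 to Nadk on chromosome 4 spanned 57.0 kb with 293, 323, 16.1 and 36.4 CPM.

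**Figure D5:**
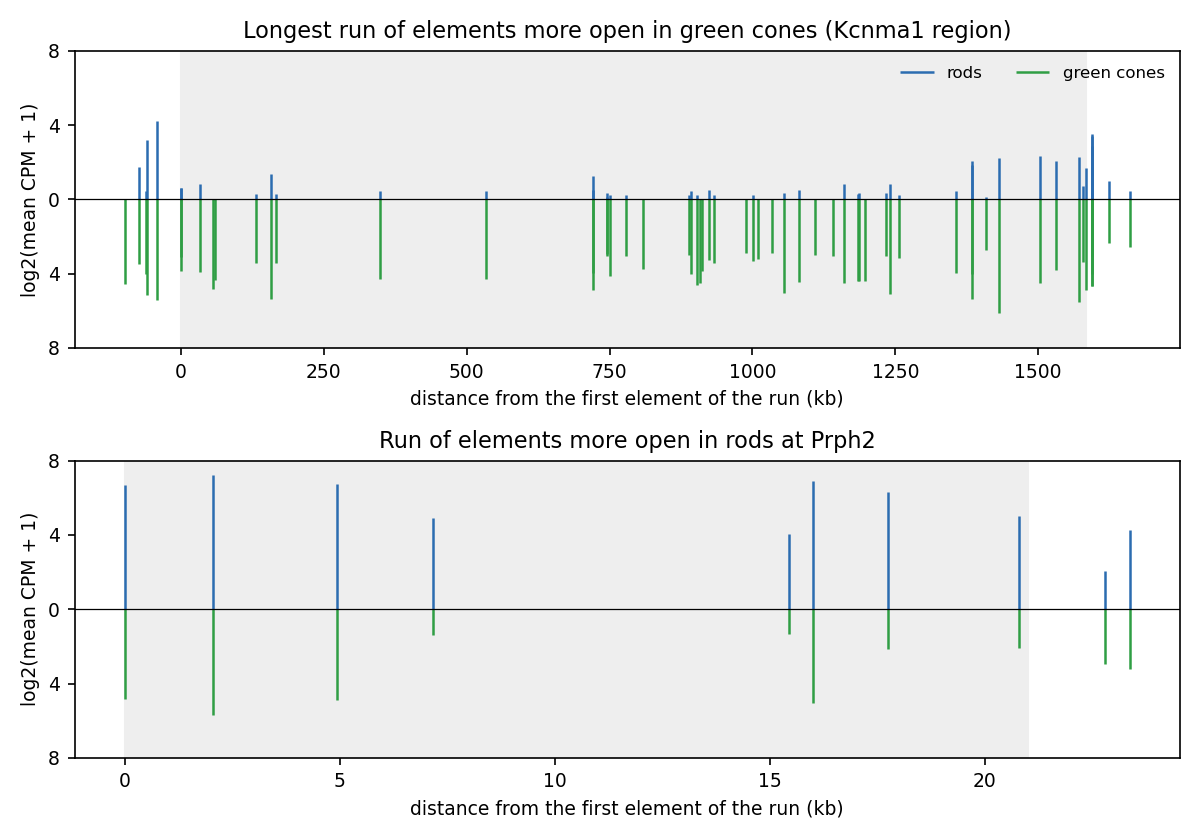
Accessibility of the elements in the longest green cone run, which includes Kcnma1 (49 elements over 1584 kb), and in the rod run at Prph2 (8 elements over 21.0 kb), by distance from the first element of the run in kb. Lines up are log2(mean CPM + 1) in rods and lines down the same in green cones, the grey area is the run, and elements just outside it are drawn too. Within the grey areas the green cone lines are the longer in the run with Kcnma1 and the rod lines at Prph2.

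Windows of 1 Mb gave the same reads on a coarser scale. Of 1950 windows with at least 3 elements, 273 were more open in green cones, which is 14.0%, and 3 in rods, which is 0.154%, by the same test. The green cone windows had median sums of 9.66, 11.3, 158 and 106 CPM and a median log2 change of −3.48, against −0.11 over all windows. They lay on 20 chromosomes, with 1 of the 68 tested windows of X. The window around Nova1 (chr12:46000001-47000000) had 1.01, 0.915, 236 and 181 CPM (log2 change −7.71, SE 0.36, edgeR adjusted p = 0.00404), and that around Irx1 on chromosome 13 had 0.805, 0.366, 158 and 133 CPM (log2 change −7.88). Eya1 and Rimbp2 lay in others, with 1.01, 1.28, 114 and 104 CPM and with 18.7, 22.9, 394 and 361 CPM. The rod windows held Dhrs3 on chromosome 4, at 76.7, 65.3, 6.12 and 13.3 CPM (log2 change 2.89), Gm15881 on chromosome 8 (log2 change 1.99) and the histone genes H2bc11 and H2ac12 with Prss16 on chromosome 13 (log2 change 1.62).

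The RNA of rods was read at the gene nearest to each element. The nearest gene reached 1 CPM in all 3 rod RNA libraries for 77.0% of rod elements, 35.0% of green cone elements and 73.2% of those not called. The median RNA level of the nearest gene in rods was 28.9, 0.292 and 18.5 CPM. At promoter elements alone the shares were 84.2%, 28.1% and 86.0%. Elements more open in green cones thus lay mostly next to genes with little or no RNA in rods. No RNA of green cones was used, and the level of these genes in green cones is not known from these data.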

How the data were processed

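According to the methods, with versions from the submitters' processing notes, the authors aligned ATAC-seq reads to GRCm38 with Bowtie2 2.2.3, filtered them with SAMtools 1.3, removed duplicates with Picard 1.121, kept short inserts and called peaks with MACS2 2.1.0 on pooled replicates. The authors kept peaks by a threshold on the irreproducible discovery rate, which compares replicates. HOMER 4.8 and bedtools 2.24.0 are also named in the methods. The deposited tables hold raw counts per 200 bp element and, from STAR 2.4.2a and HTSeq 0.6.1p1, per gene. Reads that name no gene (47.3% to 49.2% per rod RNA library) were left out. The deposited peak lists hold the MACS2 score, enrichment over background as a ratio (fold), −log10 p and the summit offset, all as the authors' peak caller wrote them. All columns of counts for the libraries used were mapped from the labels, and the authors' other sorts were not analysed here.

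Elements kept by filterByExpr were fitted with edgeR 4.0.16 (R 4.3.3, limma 3.58.1), scaled by TMM, with no covariate, and tested with glmTreat for a change beyond 1 on the log2 scale, with Benjamini-Hochberg adjusted p kept under 0.1. Elements were assigned to the nearest RefSeq start site, from 31603 start sites of 26180 genes, and symbols that matched no gene (Eys, Peripherin, Pikachurin) were left out. The 4 libraries held 1062403 to 5770075 counts, and the floor of 3 counts per library covers counting error only. DESeq2 1.42.0, other scalings, other filters and leaving out each library were tried as alternatives. Tables and figures were made with Python 3.11.15, pandas 2.3.3 and matplotlib 3.10.9.

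The elements, gene lists and members were chosen with earlier results of these data known. Named were promoter and called elements of Nrl, Opn1mw, Opn1sw, Lmna, Lbr, Myc and Xist, the 6 elements of lowest adjusted p for rods and for green cones, the 5 brightest of those without a count in the other group, up to 4 genes of each list with the largest change together with their promoters, the 5 genes with the most calls, the 5 windows with the lowest adjusted p, and the 5 brightest promoter and distal elements not called. The other elements described, such as those printed as sequences, were chosen after their values were seen. Some elements that the rule names are not reported here.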

Additional observations from a re-analysis of the deposited data

How the results depend on the processing

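No paired analysis was possible because the groups share no replicate number (rods have 1 and 2, green cones 3 and 4). The median log2 change over all elements was −0.0078 with the scaling used, −0.14 with counts in elements as library size and 0.50 with the read totals of the study, so directions near 0 depend on the scaling. The count of elements more open in rods, 3043, became 552 with DESeq2, all of them among the 3043, and 9391 when tested against no difference. It was 1253 with counts thinned to the smallest library and 1983 at an adjusted p under 0.05. It ranged from 975 without rod 2 to 8013 without green cone 4. The count of elements more open in green cones, 8852, became 5140 with the study's read totals (beside 3958 for rods), 4410 with DESeq2, of which 4061 were among the 8852, and 4932 with thinning, and it ranged from 4463 without rod 1 to 9023 without green cone 4. It was 12588 when tested against no difference and 7478 at the stricter adjusted p. RLE scaling gave 3022 and 8894, no filter 3589 and 9203, and leaving out X and Y 3026 and 8769. The calls shared with the full comparison were 2104 and 4760 without green cone 3 and 2900 and 6798 without green cone 4. Rod windows, 3 in the comparison given, numbered 40 at 250 kb, 36 with the study's totals, 1 with DESeq2 and 1 to 216 without a library. Green cone windows, 273 there, numbered 956 at 250 kb, 174 with the study's totals and 204 to 414 without a library. Counting 500 bp on either side as promoter gave shares of counts of 61.9%, 60.6%, 54.0% and 56.6%.

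Of 136 named elements that were called, 85 kept their call in every alternative in which they were tested and 51 lost it in at least 1. The alternatives were run for 143 of the 204 named elements, the 136 called and a few of those not called. Among these no called element reversed its direction, and those that did were the Gucy2e promoter (−0.27 without green cone 3, and up to 1.08 without a library), the Lbr promoter (−0.25 thinned, and from −0.28 without green cone 4 to 0.43 without green cone 3), the Rora promoter (0.33 with the study's totals), the Rps6ka2 promoter (from −0.015 without green cone 4 to 0.66 without green cone 3) and the Wnt7b element (from −0.59 without green cone 4 to 0.27 without green cone 3). The cause of these moves was not tested. Depth limits the green cone side most, where the median element had 12 and 10 counts, against 37 and 43 in rods.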
